A study of Homo sapiens with 24 samples.

Results

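The 7 genes described here, PPDPF, TRMT112, AGR2, CLU, CPA4, SLC17A5 and SEMA7A, were chosen by name for their change under a FOXA1 siRNA, out of 58721 genes in a 3′ RNA-seq count table of bladder cancer cells. All 7 passed the filter on low counts in both lines. The lines were RT112, of luminal papillary (LumP) subtype, and SCaBER, of basal/squamous (Ba/Sq) subtype. Each line received a control siRNA (siControl), 1 of 2 siRNAs against ZBED2 (siZBED2-1 or siZBED2-2), a single siRNA against FOXA1 (siFOXA1), or siFOXA1 combined with siZBED2-1 (double knock-down 1) or with siZBED2-2 (double knock-down 2). With 2 libraries per group this made 12 groups and 24 libraries, collected after short-term knock-down by lipid transfection. Every library with FOXA1 knock-down carried the same FOXA1 siRNA, so loss of FOXA1 and other effects of that siRNA sequence cannot be told apart. The double knock-downs combined 2 siRNAs, where the labels of the siFOXA1 libraries name 1. Neither labels nor methods say that the siRNA dose was matched. Between these groups, loss of ZBED2 and the presence of a second siRNA cannot be told apart. Line and culture medium cannot be told apart either, because RT112 was grown in RPMI and SCaBER in DMEM. The labels do not say whether replicates were separate cultures, so p-values measure the spread between these libraries, which may be technical.

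FOXA1 is a forkhead transcription factor that opens chromatin at enhancers and helps to maintain the luminal identity of urothelial cells. ZBED2 is a zinc finger transcription factor known to compete with interferon regulatory factors at their DNA sites. Genes that fall after FOXA1 loss can be direct or indirect targets, and knocking down both factors asks whether a change made by FOXA1 loss needs ZBED2. The 7 genes have separate roles. PPDPF is a small regulator named for pancreatic progenitor differentiation, TRMT112 is the shared activating subunit of several RNA and protein methyltransferases, and AGR2 is a protein disulfide isomerase of the endoplasmic reticulum in secretory epithelia. CLU is the secreted chaperone clusterin, CPA4 is a secreted carboxypeptidase, SLC17A5 is sialin, which exports sialic acid from lysosomes, and SEMA7A is a membrane-anchored semaphorin.

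The siControl and siFOXA1 libraries (8 of 24) chose the genes, in a contrast that called 23.3% of all genes in RT112 (11.3% higher and 11.9% lower) and 17.8% in SCaBER (8.71% higher and 9.12% lower). Values that involve them are therefore given as a description, without a test. Tests contrasted the 16 libraries that carried a ZBED2 siRNA, as the change made by the FOXA1 siRNA in ZBED2-depleted cells (double knock-down over the matching siZBED2 alone). Earlier results of these data were known when the genes were chosen, so these tests are not fully independent of the choice. The siControl and siFOXA1 libraries stayed in the fits, and so shared in the scaling, the filter and the estimate of spread. Levels are given as CPM, which are counts scaled to a common library size, with TMM scaling factors. In bulk RNA, fewer cells of a type and less RNA per cell cannot be told apart.

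Total counts ran from 4425404 to 6119210 per library. In RT112 the FOXA1 transcript had 192 and 225 counts under siControl, between 180 and 257 under either siZBED2, and between 19 and 71 in the 6 libraries with the FOXA1 siRNA. In SCaBER it was scarce from the start, with 20 and 28 counts under siControl, 14, 1, 25 and 20 in the siZBED2 libraries, 4 and 6 under siFOXA1, and 0, 1, 3 and 2 in the double knock-downs. ZBED2 had 101 and 92 counts in RT112 siControl and between 0 and 38 in the RT112 libraries with a ZBED2 siRNA. Under siFOXA1 alone it had 27 and 7 counts in RT112, within the range of the ZBED2 siRNA libraries (log2 change from siControl −2.48, SE 0.84), and 100 and 84 counts in SCaBER (0.05, SE 0.43). In RT112 a double knock-down was thus set against siFOXA1 libraries in which ZBED2 was already low, and in SCaBER against libraries with ZBED2 near its siControl level. ZBED2 in SCaBER had 101 and 96 under siControl, 12 and 40 under siZBED2-1, 20 and 8 in double knock-down 1, 49 and 57 in double knock-down 2, and 48 and 100 under siZBED2-2. The second siZBED2-2 library of SCaBER thus showed little loss of its target. The summed level of 12 luminal markers under siControl was 2209 and 2223 CPM in RT112 and 132.6 and 162.3 CPM in SCaBER, and that of 10 basal and squamous markers was between 1073 and 1162 CPM against 3469 and 3632 CPM. Of 12 stromal and immune markers, 7 in RT112 and 8 in SCaBER had no count in either siControl library. Their sum under siControl was 122.8 and 165.5 CPM in RT112, where LUM alone averaged 134.5 CPM, and 18.7 and 24.4 CPM in SCaBER. Within RT112 the luminal sum stood at 1422 to 1464 CPM under siFOXA1, 1850 to 2025 CPM in the double knock-downs and 2501 to 2903 CPM under siZBED2, so it was below siControl wherever the FOXA1 siRNA was present. FOXA1 itself is on that list, 6 of whose 9 tested genes fell with the FOXA1 siRNA in ZBED2-depleted RT112 cells and 1 of 6 in SCaBER, where 10.2% and 4.9% of all genes fell. The 1 gene of SCaBER was FOXA1, the target of the siRNA (−3.23, adjusted p 0.0429), and FOXA1 was also among the 6 of RT112. The basal and squamous sum of SCaBER stood at 4954 to 5176 CPM under siFOXA1, 4111 to 5607 CPM under siZBED2 and 4533 to 6357 CPM in the double knock-downs. That of RT112 did not rise under siFOXA1 (1006 to 1090 CPM), with 924.9 to 1404 CPM under siZBED2 and 766.1 to 1276 CPM in the double knock-downs. KRT17 alone averaged 701.7 CPM of this sum under siControl, so the sum hides its other genes. Of 7 tested in RT112, 1 rose and 2 fell with the FOXA1 siRNA in ZBED2-depleted cells, where 9.88% and 10.2% of all genes did. The luminal sum of SCaBER was 78.9 to 90.8 CPM under siFOXA1, 106.1 to 120.6 CPM under siZBED2 and 87.1 to 116.8 CPM in the double knock-downs. The part of these markers in the changes below was not tested.

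To show the start of the 3 genes with the widest tested changes in RT112, 250 bases upstream of the annotated start are printed here for AGR2 and PPDPF, which fell, and CPA4, which rose (RefSeq, GRCh38.p14, read in the direction of the gene). Of the 7 genes, 6 had such an entry. The motifs searched on both strands were the forkhead motifs TGTTTAC and TATTTAC, the AP-1 motif TGANTCA and an interferon regulatory factor motif, GAAA followed after any 2 bases by GAAA. Capitals mark matches.

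AGR2, chr7:16805000-16805249, minus strand: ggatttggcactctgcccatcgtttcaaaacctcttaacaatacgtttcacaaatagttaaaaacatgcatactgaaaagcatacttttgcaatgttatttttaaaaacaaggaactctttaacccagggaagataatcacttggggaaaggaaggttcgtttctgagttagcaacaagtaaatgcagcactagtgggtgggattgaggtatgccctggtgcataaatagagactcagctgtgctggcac

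PPDPF, chr20:63520491-63520740, plus strand: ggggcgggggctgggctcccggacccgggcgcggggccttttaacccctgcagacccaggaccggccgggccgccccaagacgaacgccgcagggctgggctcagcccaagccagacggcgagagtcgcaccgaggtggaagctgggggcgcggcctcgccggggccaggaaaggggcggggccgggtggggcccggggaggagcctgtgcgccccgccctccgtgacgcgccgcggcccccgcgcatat

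CPA4, chr7:130292911-130293160, plus strand: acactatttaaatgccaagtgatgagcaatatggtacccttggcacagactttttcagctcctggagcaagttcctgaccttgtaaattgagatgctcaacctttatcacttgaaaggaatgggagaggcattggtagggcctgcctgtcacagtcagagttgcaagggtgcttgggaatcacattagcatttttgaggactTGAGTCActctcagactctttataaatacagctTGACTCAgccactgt

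No forkhead match was present in any window of the 6 genes, while 2.98% of 35116 promoter windows of equal length held TGTTTAC and 2.39% held TATTTAC. The AP-1 motif occurred at 2 places in the CPA4 window and in none of the other members' windows, and 6.57% of all windows held it. The interferon regulatory factor motif was in no member's window and in 3.02% of all windows. The base composition differed between the genes. The PPDPF window had 78.8% GC and 31 CpG, and those of SLC17A5 and SEMA7A had 69.2% GC with 28 CpG and 70% GC with 17 CpG. The AGR2 window had 40.4% GC and 3 CpG, and the CPA4 window 44.4% GC and 0 CpG. These letters are a description and say nothing of binding.

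Baseline levels were compared between the lines first. Under siControl AGR2 stood at 144.2 CPM ± 1.49 (SD, n = 2) in RT112 and at 5.17 ± 1.16 (SD, n = 2) in SCaBER, the widest gap of the 7 genes. PPDPF was also higher in RT112, at 1042 CPM ± 7.75 against 366 ± 17.3. TRMT112 showed the opposite order, at 469 CPM ± 50.5 in RT112 and 831 ± 54.0 in SCaBER. CLU (27.4 CPM ± 1.47 against 58.9 ± 9.35) and CPA4 (31.4 ± 7.52 against 49.5 ± 0.57) were lower in RT112. SLC17A5 had 22.1 CPM ± 8.23 in RT112 and 18.0 ± 2.31 in SCaBER, and the 2 lines overlapped. SEMA7A had 51.1 CPM ± 9.77 and 31.7 ± 5.36, with both RT112 libraries above both SCaBER libraries.

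Levels of the lines were then tested under siZBED2, in a contrast without the siControl and siFOXA1 libraries. Independence from the choice of genes is not complete here either, since earlier results of these data were known. The ZBED2 siRNAs moved some of these genes themselves, so siZBED2 is not an untreated baseline. By the edgeR quasi-likelihood test 4 of the 7 genes differed between the lines, where 49% of 14823 genes did (24.4% higher and 24.7% lower in RT112), so that this share is close to the background. AGR2 was higher in RT112 (log2 difference 5.57, SE 0.25, adjusted p 8.53e-19), as was PPDPF (1.51, SE 0.14, adjusted p 7.15e-11). SLC17A5 was also higher in that line (1.41, SE 0.17, adjusted p 2.41e-08). TRMT112 was lower in RT112 (−0.93, SE 0.09, adjusted p 3.57e-10). For CLU (−0.12, 95% interval −0.38 to 0.14), CPA4 (−0.22, −0.51 to 0.08) and SEMA7A (0.20, −0.21 to 0.61) no difference passed the test. The SLC17A5 libraries of the lines overlapped under siControl and did not under siZBED2. Relative to siControl, siZBED2-1 and siZBED2-2 changed SLC17A5 by 1.63 and 1.36 in RT112 and by 0.39 and 0.42 in SCaBER. For CLU the changes were 1.87 and 0.59 in RT112 and 0.51 and 9e-04 in SCaBER. The line difference under siControl, given without a test, was 0.32 for SLC17A5 (95% interval −0.21 to 0.85) and −1.09 for CLU (−1.48 to −0.70). The part of the ZBED2 siRNAs in these calls was not tested.

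**Figure D1:**
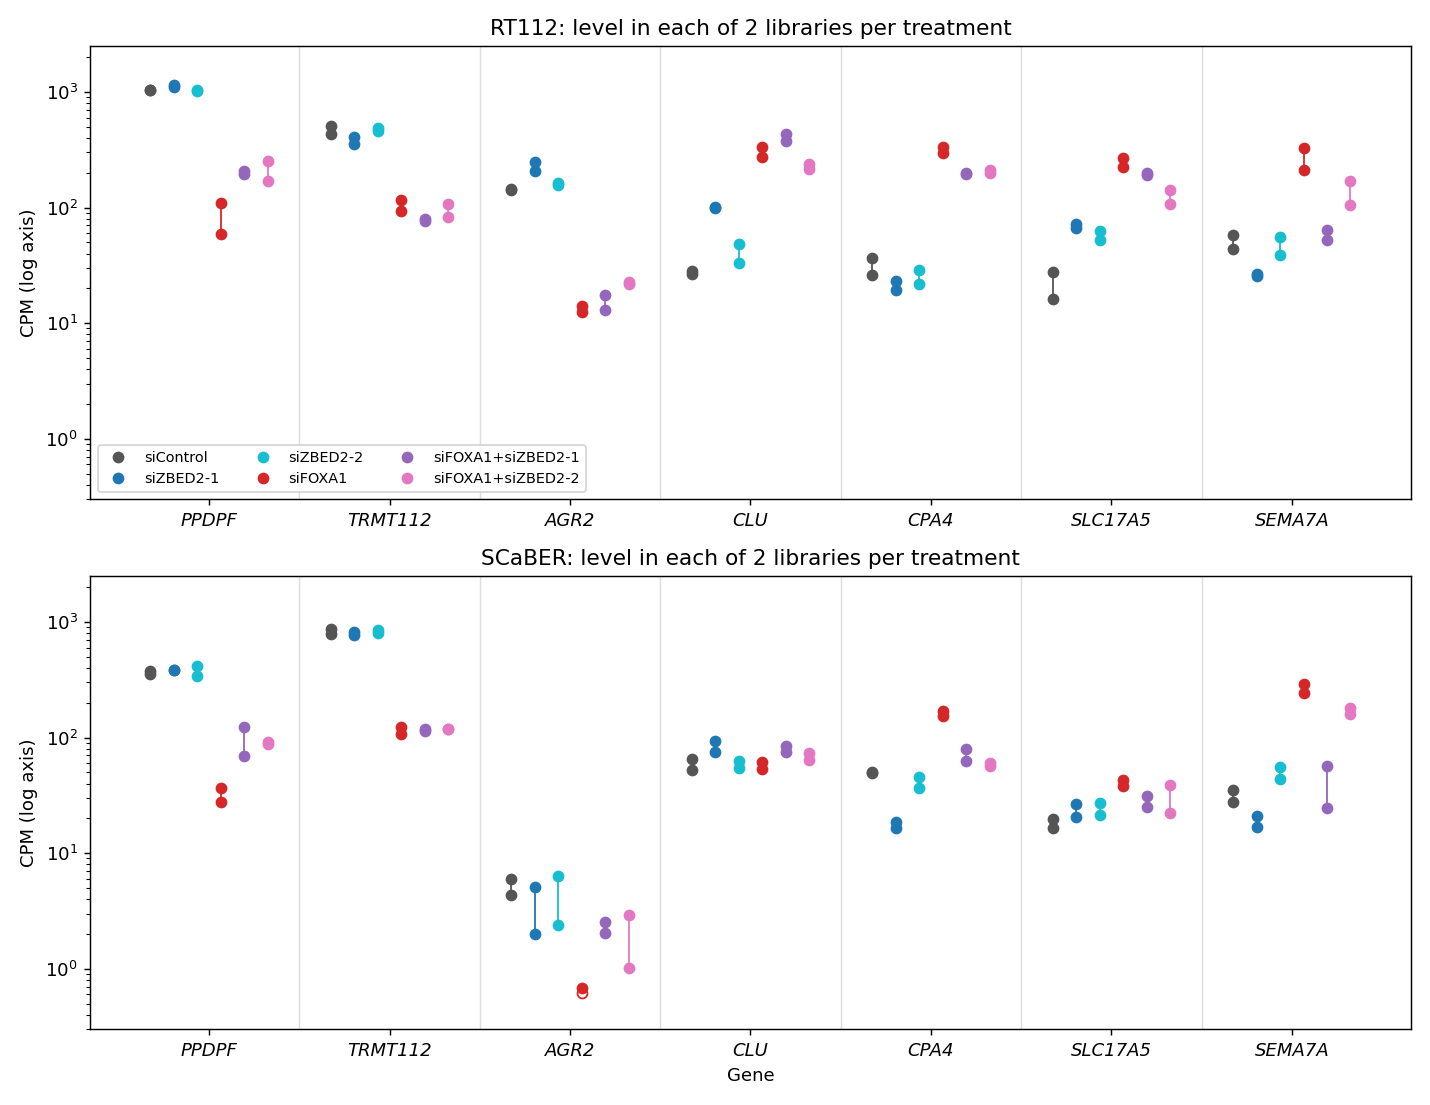
Level of the 7 genes in CPM (log axis) in each library, by line and siRNA treatment, with 2 points per treatment joined by a line. An open circle marks the single library with 0 counts, drawn at the level that 3 counts would give. The FOXA1 siRNA groups of PPDPF and TRMT112 lie below siControl and siZBED2 in both lines, and CLU responds in RT112 but not in SCaBER.

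The 3 genes that fell came first. PPDPF (ENSG00000125534, chromosome 20, 63520741 to 63522206, GRCh38.p14) stood in RT112 at 1037 and 1048 CPM under siControl and at 110.2 and 58.5 CPM under siFOXA1. The siZBED2-1 libraries had 1155 and 1110 CPM and the siZBED2-2 libraries 1049 and 1009 CPM, against 193 and 207 CPM in double knock-down 1 and 251 and 169.7 CPM in double knock-down 2. All 4 double knock-down libraries were thus below all 4 siZBED2 libraries, and all 4 were above both siFOXA1 libraries. The tested change was −2.40 on the log2 scale (SE 0.14, adjusted p 1.28e-12), a 5.27-fold lower mean. In SCaBER PPDPF had 354 and 379 CPM under siControl and 36.7 and 27.5 under siFOXA1. Its siZBED2 libraries held between 344 and 413 CPM, and its double knock-down libraries 69.5 and 123 CPM with siZBED2-1 and 91.1 and 87.1 CPM with siZBED2-2. The groups did not overlap here either, and the change was −2.05 (SE 0.12, adjusted p 1.11e-13).

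PPDPF was the clearest case of partial restoration among the genes that fell. The siFOXA1 change from siControl was −3.62 in RT112 and −3.51 in SCaBER (SE 0.20 and 0.19). In the double knock-downs it was −2.38 and −2.31 in RT112 and −1.93 and −2.04 in SCaBER. The share of the siFOXA1 log2 change that was left, both changes being taken from the same siControl libraries, was thus 65.7% and 63.7% in RT112 and 55.1% and 58.1% in SCaBER. Leaving out any 1 library, it ran from 57.4% to 73.6% and from 55.6% to 72.3% in RT112. In SCaBER it ran from 44.9% to 68.5% and from 54.5% to 61.3%. ZBED2 itself was already low under siFOXA1 in RT112, so the shares left in that line compare libraries that were all low in ZBED2. Neither ZBED2 siRNA alone moved PPDPF by more than 0.12 on the log2 scale in either line.

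TRMT112 (ENSG00000173113, chromosome 11, 64316460 to 64318596) kept its whole fall. In SCaBER it stood at 793 and 869 CPM under siControl, 107 and 124 CPM under siFOXA1, 119 and 113 CPM in double knock-down 1, and 118 and 118 CPM in double knock-down 2. Its siZBED2 libraries held 778 to 858 CPM. The 6 libraries with the FOXA1 siRNA therefore lay in a narrow band that was far below the other 6. The tested change was −2.80 (SE 0.09, adjusted p 2.53e-22), 6.98-fold lower, which had the smallest p of the 7 genes in SCaBER. In RT112 the values were 433 and 504 CPM under siControl, 117 and 92.9 under siFOXA1, 76.1 and 79.5 in double knock-down 1 and 106 and 83.1 in double knock-down 2, beside 351 to 485 under siZBED2 (−2.30, SE 0.11, adjusted p 9.62e-14). The share of the siFOXA1 change left was 120% and 107% in RT112 and 100% and 99.1% in SCaBER. ESRRA and PRDX5 overlap or adjoin TRMT112 in the annotation, and neither fell. Of these, PRDX5 rose in RT112 (0.46, adjusted p 0.00485), and ESRRA had values of 0.37 and 0.22 that did not pass. TRMT112 has pseudogene copies, which can take part of its reads, so its level is uncertain to that extent.

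AGR2 (ENSG00000106541, chromosome 7, 16791811 to 16804999) fell in RT112 from 145 and 143 CPM under siControl to 14.1 and 12.5 CPM under siFOXA1. It had 208 and 248 CPM under siZBED2-1 and 163 and 156 CPM under siZBED2-2. Double knock-down 1 held 13.0 and 17.4 CPM and double knock-down 2 held 22.8 and 21.7 CPM. The fall was kept in all 4 libraries, and the second double knock-down stood above both siFOXA1 libraries. The tested change was −3.37 (SE 0.14, adjusted p 5.45e-15), 10.4-fold lower, the lowest p of the 7 genes in RT112. The share of the siFOXA1 change left was 94.4% in double knock-down 1 and 78.4% in double knock-down 2.

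AGR2 in SCaBER lay near the limit of detection. It had 23 and 30 counts under siControl, 10, 28, 13 and 40 in the siZBED2 libraries, 0 and 3 under siFOXA1, and 11, 12, 5 and 14 in the double knock-downs. Against the limit of 3 counts per library, siFOXA1 was at least 8-fold lower than siControl. The double knock-down and siZBED2 libraries overlapped, and the tested change (−0.90, 95% interval −2.31 to 0.51, adjusted p 0.476) was not detectable at this depth.

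Of the 4 genes that rose, CLU separated the lines most. CLU (ENSG00000120885, chromosome 8, 27596917 to 27614700) stood in RT112 at 26.4 and 28.4 CPM under siControl and 272 and 335 CPM under siFOXA1. It had 98.2 and 102.0 CPM under siZBED2-1 and 33.4 and 48.8 CPM under siZBED2-2. Double knock-down 1 held 380 and 437 CPM, more than either siFOXA1 library, and double knock-down 2 held 216 and 237 CPM, less than either. The FOXA1 siRNA raised CLU in ZBED2-depleted RT112 cells (2.24, SE 0.12, adjusted p 6.7e-13), 4.49-fold, without overlap between the groups. The siZBED2-1 siRNA alone was itself 1.87 above siControl (SE 0.18), and siZBED2-2 0.59 above (SE 0.19). In SCaBER the levels of CLU ran from 52.3 to 92.9 CPM over all 12 libraries. The siControl libraries had 65.5 and 52.3 CPM, siFOXA1 61.8 and 53.1 CPM, the siZBED2 libraries between 54.9 and 92.9 CPM, and the double knock-downs between 64.3 and 85.2 CPM. These groups overlapped, and the change by the FOXA1 siRNA was 0.08 (95% interval −0.19 to 0.35, adjusted p 0.781), an interval that leaves out the size seen in RT112.

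CPA4 (ENSG00000128510, chromosome 7, 130293161 to 130324180) rose in both lines, and more of the rise was left in the double knock-downs of RT112. In that line it stood at 36.7 and 26.1 CPM under siControl, 296 and 334 CPM under siFOXA1, 198 and 195 CPM in double knock-down 1 and 197 and 210 CPM in double knock-down 2. The siZBED2 libraries held 19.3 to 28.7 CPM. The double knock-down libraries thus fell between siControl and siFOXA1, far above siZBED2 (3.11, SE 0.14, adjusted p 1.48e-14), 8.64-fold, with 79.7% and 81.1% of the siFOXA1 change left. In SCaBER it had 49.1 and 49.9 CPM under siControl, 154 and 169 CPM under siFOXA1, 79.2 and 63.2 CPM in double knock-down 1 and 59.9 and 57.2 CPM in double knock-down 2. All 4 were above both siControl libraries by a small margin, and 30.9% and 14.2% of the siFOXA1 change from siControl (1.70, SE 0.19) was left. These shares include the change from siControl that each ZBED2 siRNA made alone. It was −1.49 (SE 0.20) with siZBED2-1 and −0.26 (SE 0.19) with siZBED2-2. The siZBED2-1 libraries of SCaBER stood at 16.6 and 18.5 CPM, below siControl, and the siZBED2-2 libraries at 36.9 and 45.6 CPM. CPA4 was therefore raised over siZBED2 on average (1.26, SE 0.14, adjusted p 4.94e-08), and by different amounts on the 2 ZBED2 siRNAs: 2.02 on siZBED2-1 (adjusted p 2.54e-08) and 0.50 on siZBED2-2 (95% interval 0.12 to 0.89, adjusted p 0.163).

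SLC17A5 (ENSG00000119899, chromosome 6, 73593379 to 73653992) stood in RT112 at 16.3 and 27.9 CPM under siControl and 224 and 266 CPM under siFOXA1. Either ZBED2 siRNA alone also lay above siControl, with 71.4 and 66.4 CPM for siZBED2-1 and 62.3 and 52.5 CPM for siZBED2-2 (log2 changes of 1.63 and 1.36, SE 0.22 each). Double knock-down 1 held 199.9 and 191 CPM and double knock-down 2 held 107 and 141 CPM. All 4 exceeded the siZBED2 libraries (1.31, SE 0.14, adjusted p 2.27e-07), 2.53-fold. Measured from siControl, 90.6% and 71.6% of the siFOXA1 change was left. These shares include the rise that each ZBED2 siRNA made alone. The siFOXA1 change from siControl was 3.46, larger than the 1.31 that the FOXA1 siRNA added over siZBED2. The difference between these changes was not tested. In SCaBER SLC17A5 had 19.6 and 16.4 CPM under siControl, 42.6 and 38.1 under siFOXA1, 20.7 to 27.1 under siZBED2, and 31.3, 25.2, 22.4 and 39.2 in the double knock-downs. Double knock-down and siZBED2 libraries overlapped, and the change (0.31, 95% interval −0.10 to 0.72, adjusted p 0.387) did not pass.

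SEMA7A (ENSG00000138623, chromosome 15, 74409289 to 74433958) was the gene in which the 2 double knock-downs parted most. In RT112 it stood at 44.2 and 58.0 CPM under siControl, 209.6 and 325 CPM under siFOXA1, 63.3 and 52.4 CPM in double knock-down 1 and 105 and 169.9 CPM in double knock-down 2. In SCaBER the same groups held 27.95 and 35.5 CPM, 242 and 289.6 CPM, 56.8 and 24.6 CPM, and 161 and 179 CPM. With siZBED2-1 7.37% of the siFOXA1 log2 rise was left in RT112 and 12% in SCaBER, and with siZBED2-2 59.7% and 78.9%. The first pair of shares rests on single libraries. In SCaBER it was −11.9% without double knock-down 1 replicate 1 and 27.2% without replicate 2. In RT112 it was 1.26% and 13% without those libraries, and −0.127% and 14.7% without siControl replicate 1 and replicate 2. Leaving out any 1 library, the share with siZBED2-2 stayed between 43.3% and 72.4% in RT112 and between 75.9% and 82.7% in SCaBER. The level under the ZBED2 siRNA alone was low in the first case as well. It was 26.8 and 25.4 CPM in RT112 and 17.0 and 20.9 CPM in SCaBER with siZBED2-1, below every siControl library of the line, and 55.2 and 39.1 CPM in RT112 and 55.8 and 43.6 CPM in SCaBER with siZBED2-2.

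Measured over the matching ZBED2 siRNA, SEMA7A still rose with the FOXA1 siRNA in all 4 pairs of groups. In RT112 the change was 1.15 on siZBED2-1 (SE 0.25, adjusted p 0.00342) and 1.54 on siZBED2-2 (SE 0.24, adjusted p 0.000112). In SCaBER it was 1.11 on siZBED2-1 (SE 0.25, adjusted p 0.00502) and 1.78 on siZBED2-2 (SE 0.22, adjusted p 2.1e-06). Taken over both ZBED2 siRNAs RT112 showed a change of 1.35 (SE 0.17, adjusted p 3.06e-06), whereas SCaBER showed 1.44 (SE 0.17, adjusted p 1.39e-07), although the 4 double knock-down libraries of each line overlapped with the 4 siZBED2 libraries. The double knock-downs differed from each other by −1.25 in RT112 (adjusted p 0.00394), while SCaBER gave −2.05 (adjusted p 1.01e-06), and the change by the FOXA1 siRNA did not differ between the ZBED2 siRNAs beyond the test's threshold (−0.40, 95% interval −1.10 to 0.31, and −0.67, −1.35 to 0.01). The SCaBER value on siZBED2-1 rested on double knock-down 1 replicate 1. Without that library it was 0.36 (adjusted p 0.604).

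**Figure D2:**
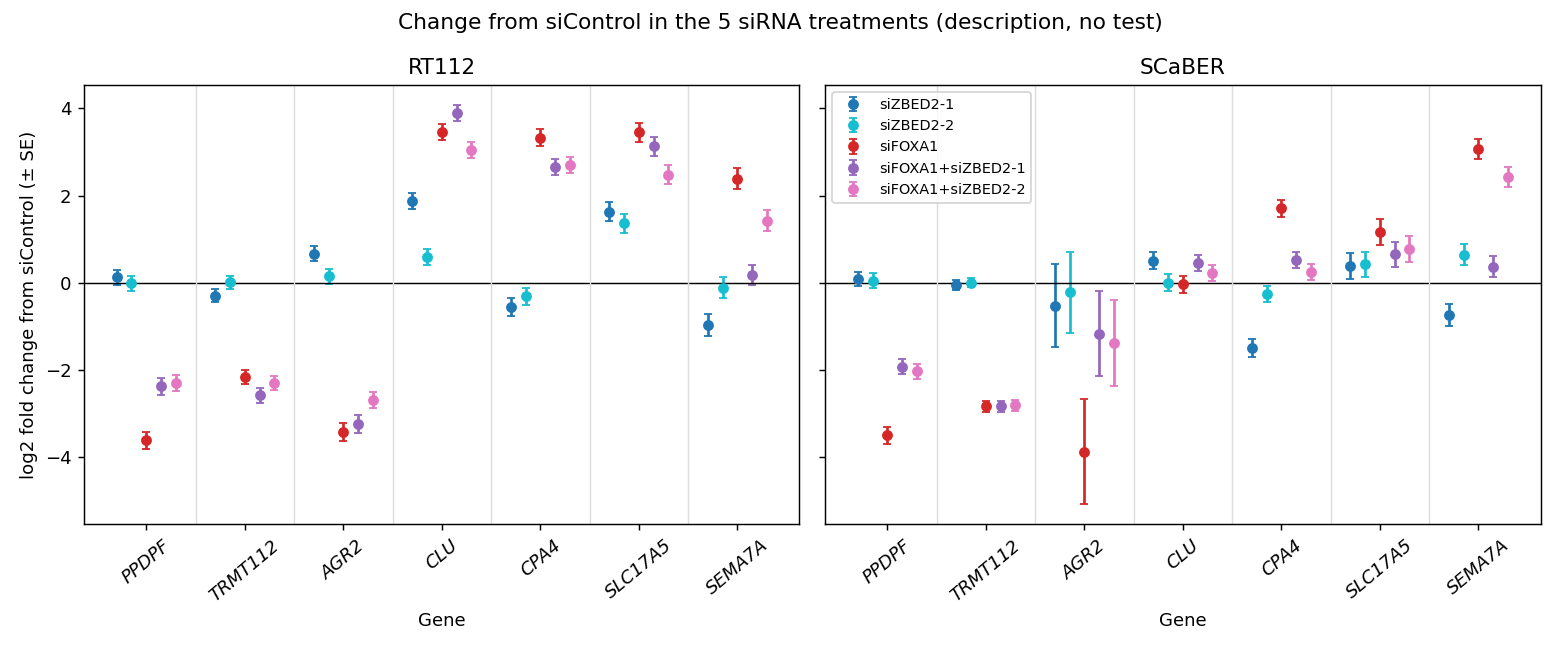
Log2 fold change from siControl (vertical axis, error bars ± SE) of the 7 genes under each of the 5 other siRNA treatments, by line. These values share the siControl libraries that chose the genes and carry no test. TRMT112 keeps its fall in all FOXA1 siRNA groups, PPDPF moves part of the way back, and SEMA7A returns near 0 with siZBED2-1 but not with siZBED2-2; the fitted AGR2 value of SCaBER siFOXA1 rests on 0 and 3 counts.

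The whole set was then counted against all genes tested. The genes were chosen for their change under this same FOXA1 siRNA in these lines. Counts above the shares of all genes, in the directions of that choice, were therefore built in and are no separate support. In RT112 7 of 7 genes were called for the FOXA1 siRNA change with ZBED2 depleted, 4 higher and 3 lower, where 20.1% of 13264 genes were called (9.88% higher and 10.2% lower). All 7 were also called on siZBED2-1 alone (background 10.3%, with 4.89% higher and 5.41% lower) and on siZBED2-2 alone (8.78%, with 4.44% higher and 4.34% lower), in the same directions. In SCaBER 4 of 7 were called, PPDPF and TRMT112 lower and CPA4 and SEMA7A higher, where 10.1% of 13129 genes were called (5.24% higher and 4.9% lower). The same 4 were called on siZBED2-1 (5.78%, with 3.05% higher and 2.73% lower), and PPDPF, TRMT112 and SEMA7A on siZBED2-2 (3.03%, with 1.65% higher and 1.38% lower). The median change of the 7 genes has no meaning of its own here, since they move both ways (1.31 in RT112 and 0.08 in SCaBER, beside −0.0056 and −0.0013 for all genes). All directions of the called genes were the same on library totals, on which 35.1% of the RT112 calls were higher against 49.3% with TMM, and on TPM, where 14.2% were higher in RT112 and 41.5% in SCaBER (51.7% with TMM). On TPM the median of all genes shifted by −0.22 in RT112.

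The labels name the replicate number an experiment batch, and each batch held 1 library of every group. Within batch 1 and batch 2, on log2(CPM + 0.5), the change by the FOXA1 siRNA was −2.32 and −2.50 for PPDPF, −2.30 and −2.29 for TRMT112, −3.38 and −3.31 for AGR2, 2.31 and 2.18 for CLU, 2.92 and 3.28 for CPA4, 1.13 and 1.47 for SLC17A5 and 1.07 and 1.57 for SEMA7A in RT112. In SCaBER it was −2.32 and −1.81 for PPDPF, −2.74 and −2.85 for TRMT112, 1.46 and 1.03 for CPA4 and 1.62 and 1.13 for SEMA7A. Both batches had the pooled direction for every gene called in its line.

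**Figure D3:**
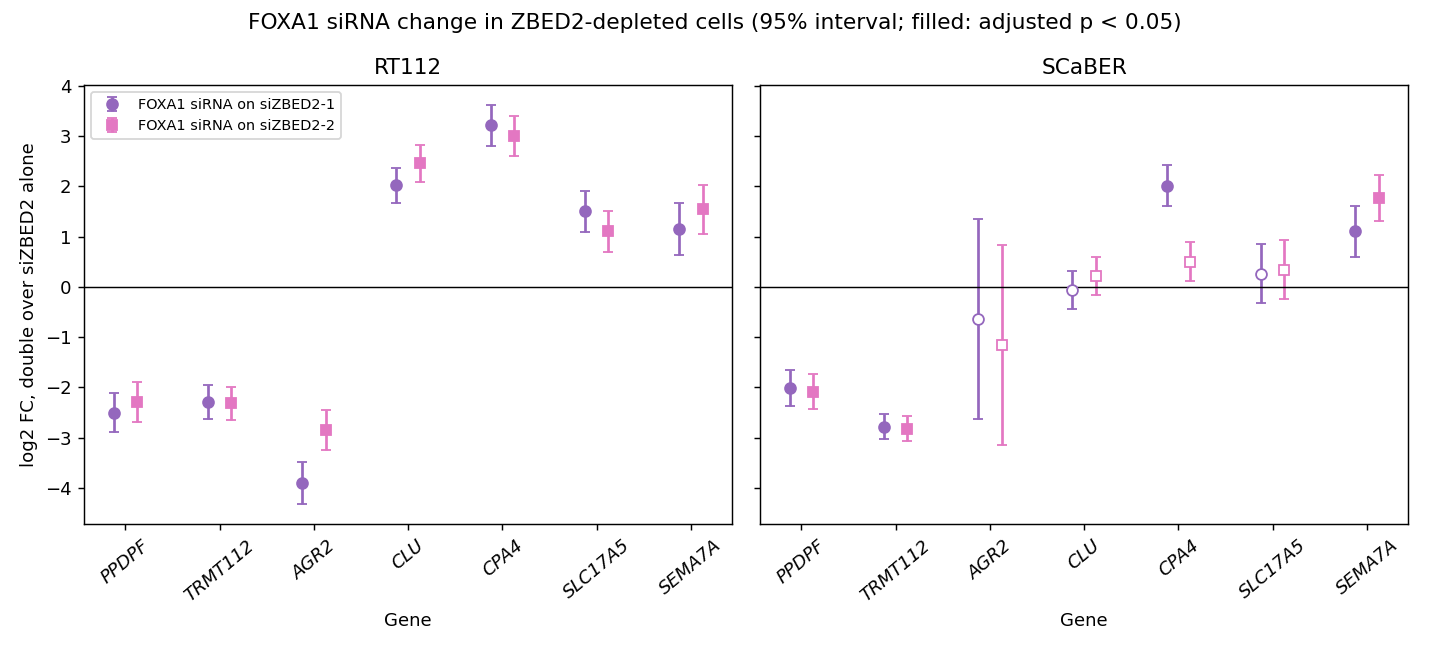
Tested log2 fold change (vertical axis, bars are 95% intervals) of each gene when the FOXA1 siRNA was added to siZBED2-1 (circles) or siZBED2-2 (squares), by line; filled symbols have an adjusted p under 0.05. All 14 symbols are filled in RT112 and 7 of 14 in SCaBER, where CPA4 is filled on siZBED2-1 alone.

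The difference between the lines was tested directly in a fit of all 24 libraries. The change by the FOXA1 siRNA with ZBED2 depleted differed between RT112 and SCaBER for 5 of 7 genes, where 2.97% of 14823 genes differed (1.46% with a higher and 1.5% with a lower value in RT112). The genes were chosen for their change under this same FOXA1 siRNA, which for CLU was 3.47 in RT112 and −0.04 in SCaBER. A count above the share of all genes is thus no separate result. CLU rose more in RT112 (RT112 minus SCaBER 2.17, SE 0.18, adjusted p 1.17e-09). The same held for CPA4 (1.86, SE 0.19, adjusted p 1.31e-07) and for SLC17A5 (1.00, SE 0.24, adjusted p 0.0155). AGR2 fell more there (−2.44, SE 0.43, adjusted p 0.00108), from a SCaBER level near the detection limit. TRMT112 fell less in RT112 by a small amount (0.50, SE 0.14, adjusted p 0.0358). That call was lost when any of 11 of the 24 libraries was left out. PPDPF (−0.34, 95% interval −0.75 to 0.06) and SEMA7A (−0.09, −0.65 to 0.47) gave no difference past the threshold.

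The 2 double knock-downs were also compared with each other, in which a value above 0 is higher with siZBED2-1. In RT112 CLU (0.85, SE 0.16, adjusted p 0.0046) and SEMA7A differed, 2 of 7 genes where 1.79% of all genes did (0.641% higher and 1.15% lower). SEMA7A alone differed in SCaBER, where 1.49% did (0.427% higher and 1.07% lower). For PPDPF the values were −0.07 (95% interval −0.46 to 0.31) in RT112 and 0.11 (−0.25 to 0.46) in SCaBER, and for TRMT112 −0.28 (−0.61 to 0.05) and −0.03 (−0.27 to 0.22). Both calls of RT112 were lost without a single library. CLU had an adjusted p of 0.0664 without double knock-down 1 replicate 2, and SEMA7A one of 0.097 without double knock-down 2 replicate 2. Only CPA4 in SCaBER showed a different change by the FOXA1 siRNA on the 2 ZBED2 siRNAs (1.52, SE 0.28, adjusted p 0.0303), where 0.0381% of genes did (0.0152% higher and 0.0229% lower). In RT112 0 of 7 genes did in edgeR (0.0905% of all genes, 0.0226% higher and 0.0679% lower), with 1 at an unadjusted p under 0.05, AGR2 (−1.06, unadjusted p 0.000571, adjusted p 0.195), and none was called there by DESeq2 or by limma on TPM. The 2 double knock-downs of SCaBER differed in ZBED2 itself (−1.99, SE 0.50, adjusted p 0.0328), and the part of that difference in the results was not tested.

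Genes that work with the members were counted next, for the FOXA1 siRNA change with ZBED2 depleted. The counts stand against 20.1% of all genes called in RT112 (9.88% higher and 10.2% lower) and 10.1% in SCaBER (5.24% higher and 4.9% lower), and a count near those shares is no result about a list. Of 7 methyltransferase partners of TRMT112, METTL5, which methylates ribosomal RNA, fell (−0.73, adjusted p 0.00142) and ALKBH8, a transfer RNA modifier, rose (0.99, adjusted p 0.0186) in RT112, and 0 of 7 were called in SCaBER by edgeR, with 0 at an unadjusted p under 0.05. The median was 0.20 and 0.08. Of the protein disulfide isomerase family of AGR2, 14 genes were tested in RT112, with ERP44 and PDIA6 higher and TMX4 and DNAJC10 lower, and 15 in SCaBER, with PDIA6 (0.35, adjusted p 0.00118), P4HB and PDIA3 higher. Their medians were 0.12 and 0.23. These changes were small beside that of AGR2, the widest being −0.71 for TMX4.

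For SEMA7A, 23 semaphorins and receptors were tested in RT112, of which 3 rose and 6 fell (median 0.02), where 20.1% of all genes were called. SEMA3D rose (2.68, adjusted p 0.000317), while SEMA5A (−1.19, adjusted p 0.000247), PLXND1 (−1.03, adjusted p 0.0052) and SEMA4B (−0.51, adjusted p 0.0133) were among those that fell. ITGB1, the integrin subunit through which SEMA7A signals, was singled out for that role after its values were seen, and rose by little (0.27, adjusted p 0.0496). In SCaBER SEMA3A rose (0.31, adjusted p 0.0386) and PLXND1 fell (−2.62, adjusted p 0.0372) out of 21, with a median of 0.01. Of the complement regulators and clusterin receptors, CD55, which protects cells from complement, fell in RT112 (−1.86, adjusted p 3.77e-06), LRP8 fell (−0.66, adjusted p 0.00819) and C3, the central complement component, rose (1.09, adjusted p 0.00442), 3 of 9 with a median of 0.15. In SCaBER 1 of 8 was called, C3, which fell (−0.52, adjusted p 0.000961), with a median of 0.03. Of the sialic acid genes, GNE, the first enzyme of sialic acid synthesis, rose in RT112 (0.58, adjusted p 0.0386; 1 of 9, median −0.09), and CMAS, which activates sialic acid, in SCaBER (0.36, adjusted p 0.0387; 1 of 8, median 0.13). Among carboxypeptidases and inhibitors, CPD fell in RT112 (−0.60, adjusted p 0.00536; 1 of 3, median −0.16), and 0 of 5 were called in SCaBER (median −0.27).

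The 3 nearest tested genes on each side of a member were examined in the same way. In RT112 9 of 42 neighbours rose and 3 fell, and in SCaBER 3 of 42 rose and 2 fell. Over all genes 9.88% rose and 10.2% fell in RT112, and 5.24% and 4.9% in SCaBER. Next to PPDPF, HELZ2 rose in both lines while PPDPF fell (1.54, adjusted p 4.89e-07, and 1.39, adjusted p 3.92e-10). Next to TRMT112, BAD fell in both (−0.74, adjusted p 0.00069, and −0.47, adjusted p 0.0164), by less than TRMT112. Next to SEMA7A, CLK3 fell in both (−0.76 and −0.77, adjusted p 0.0167 and 0.0345) and PML rose in SCaBER (0.77, adjusted p 1.47e-05).

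The genes most like each member over the 24 libraries, after the mean of each line was subtracted, were named by Pearson's r of log2 CPM as a description. The libraries share 12 treatment groups, so r has no test here. PPDPF was followed most closely by KLF5 (0.98), PABPC4 and SLC39A6 (0.98 each), with r of at least 0.97 in each line. TRMT112 was followed by SEPT7 (0.97), NSA2 and FIBP (0.96 each), and AGR2 by HES1, ID1 and FAM234A (0.93 each). CLU was followed by APOBEC3C (0.96), KRT80 and MVP, where r within SCaBER was 0.65, 0.09 and 0.37, the line in which CLU varied little. CPA4 was nearest to TSC1, NFAT5 and YWHAB (0.93 each), SLC17A5 to MED6, ATP6AP1 and ATP6V1E1 (0.92, 0.92 and 0.91), and SEMA7A to IST1 (0.93), SYAP1 (0.88) and MFAP1 (0.87). The members were chosen for their change under the FOXA1 siRNA, in libraries that also enter these r values. A positive r between members that moved alike, and a negative r between those that moved oppositely, was therefore built in. The same choice enters the r of the genes named above. As a description, PPDPF and CPA4 had r = −0.91, PPDPF and TRMT112 0.91, and CLU and SLC17A5 0.87. CLU and SEMA7A were the least related (0.27).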

How the data were processed

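The authors deposited raw counts, whole numbers of reads per gene from oligo-dT primed 3′ libraries, and TPM values. Per the labels and deposited settings, reads were cut by TrimGalore 0.6.2 at quality 20, kept from a length of 10, aligned as single ends to hg38 with STAR 2.6.1a and counted on GENCODE 29, with strand detected automatically. The paper's methods name hg19 instead, and the deposited settings were followed. The deposited TPM values divide by gene length, which does not suit 3′ reads, so they entered a single alternative.

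Counts were tested in R 4.3.3 with edgeR 4.0.16 (quasi-likelihood F-test, TMM, filterByExpr with a minimum count of 10 and total of 15, Benjamini-Hochberg adjusted p under 0.05). Each line was fitted on its 12 libraries, and differences between lines on all 24. The biological coefficient of variation came to 25.8% (RT112), 21.6% (SCaBER) and 24.5% (all libraries). A log2 fold change carries its standard error, and intervals are at 95%. Total counts were 4425404 to 6119210 per library, and 34121 of 58721 genes had no count. A count of 0 allows up to 3 counts; this floor reflects counting error alone, because reads had no molecular identifiers and PCR duplicates are not separate molecules. Replicates differed by more than counting noise (chi-square per gene 6.07 to 22.1). The labels pair libraries by experiment batch, while the correlation of deviations averaged 0.0336 in RT112 and 0.0259 in SCaBER, with 0 of 15 pairs over 0.1 in each line.

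Alternatives were DESeq2 1.42.0, limma 3.58.1 on log2(TPM + 1), other scalings, no filter, a replicate block, fewer libraries and leaving out each library. The script was tested on simulated data. Members and gene lists were chosen with earlier results of these data known. Genes named besides the members and the siRNA targets were, per list and line, up to 4 called genes with the smallest p, called neighbours, and the 3 most correlated genes per member. ITGB1, the markers LUM and KRT17, and the uncalled genes ERP27 and ESRRA, the latter a neighbour, were named outside this rule. Deposited tables of settings and comparisons were not used. Promoters and coordinates came from RefSeq on GRCh38.p14, with 36177 gene identifiers matched.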

Additional observations from a re-analysis of the deposited data

Results flagged for a closer look

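In 6 cases results differed between groups by a test of the difference itself. The genes were chosen for their change under the same FOXA1 siRNA, so the number of such cases is no separate result. The change made by the FOXA1 siRNA in ZBED2-depleted cells differed between RT112 and SCaBER for CLU (RT112 minus SCaBER 2.17 on the log2 scale, adjusted p 1.17e-09), CPA4 (1.86, adjusted p 1.31e-07), AGR2 (−2.44, adjusted p 0.00108), SLC17A5 (1.00, adjusted p 0.0155) and TRMT112 (0.50, adjusted p 0.0358). The AGR2 value rests on a SCaBER level of 5 to 40 counts, and without SCaBER double knock-down 2 replicate 2 its adjusted p was 0.0565. Within SCaBER the change of CPA4 was larger on siZBED2-1 than on siZBED2-2 by 1.52 (adjusted p 0.0303), where siZBED2-1 alone had put CPA4 below siControl and ZBED2 had been depleted less with siZBED2-2 (48 and 100 counts). The part of that depletion in the result was not tested. No group held more than 2 libraries, so single libraries were not screened for outlying values.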

How the results depend on the processing

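Calls of the 7 genes for the FOXA1 siRNA change with ZBED2 depleted were kept under all 7 alternative settings and every left-out library: all 7 in RT112 and PPDPF, TRMT112, CPA4 and SEMA7A in SCaBER. No called value changed sign under any alternative. On TPM both calls between the RT112 double knock-downs were lost (CLU, adjusted p 0.428, and SEMA7A, 0.168), SEMA7A on siZBED2-1 in RT112 had an adjusted p of 0.121 and SLC17A5 on siZBED2-2 one of 0.135, and the line difference of SLC17A5 one of 0.167. SEMA7A on siZBED2-1 in SCaBER was lost with DESeq2 (0.0645), on TPM (0.192) and without siZBED2-1 replicate 1 (0.0788). The CPA4 difference in SCaBER was lost on TPM (0.28) and without any of 4 libraries (up to 0.161), and the TRMT112 line difference on library totals (0.0971) and TPM (0.449). SLC17A5 between the RT112 double knock-downs was called without the filter (0.0232), with DESeq2 (0.0496) and with the block (0.0271), and the CPA4 level was lower in RT112 on TPM (−0.38, adjusted p 0.0111). The share of SEMA7A left in RT112 double knock-down 1 turned negative on TPM (−0.09 from siControl). The cause was not tested.

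Numbers of called genes moved as follows, beside the value given first. On limma with TPM they were 408 on siZBED2-1 (1366) and 573 on siZBED2-2 (1165), 1 between the double knock-downs (237) and 1 for the difference between ZBED2 siRNAs (12) in RT112, and 670 with ZBED2 depleted (1331), 237 on siZBED2-1 (759), 101 on siZBED2-2 (398), 50 between the double knock-downs (196) and 2 for the difference (5) in SCaBER, and 292 for the line difference (440). Without the filter they were 373 and 63 in RT112 for the 2 last comparisons and 31 for the difference in SCaBER. DESeq2 gave 367 and 31 in RT112, 18 for the difference in SCaBER and 831 between the lines. With ZBED2 siRNA libraries only the difference had 6 genes in RT112 and 14 in SCaBER. The replicate block, which pairs libraries by batch, gave 393 and 29 in RT112 for the same 2 comparisons, and 641 on siZBED2-2, 316 between the double knock-downs and 32 for the difference in SCaBER, and it changed no other call of the members.

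Leaving out 1 library at a time gave 2060 to 2873 genes with ZBED2 depleted, 672 to 1583 on siZBED2-1, 588 to 1423 on siZBED2-2, 89 to 347 between the double knock-downs and 6 to 41 for the difference in RT112. In SCaBER the ranges were 872 to 1516, 296 to 929, 209 to 550, 71 to 282 and 1 to 21, and between the lines 305 to 545 for the change and 6479 to 7355 for the level. The share of calls that were higher moved with the scaling. In RT112 it was 47.5% on siZBED2-1, 50.6% on siZBED2-2 and 35.9% between the double knock-downs, against 32.9%, 33.3% and 25.5% on library totals and 16.7%, 14.3% and 0% on TPM. In SCaBER it was 52.8% on siZBED2-1 and 28.6% between the double knock-downs, against 33.8% and 14% on TPM. For the line difference it was 49.3%, against 34.8% on library totals and 18.8% on TPM. With 2 libraries per group, a lone remaining library is assumed to vary like the other groups.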
